A study of Mus musculus with 6 samples.

Results

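The guanylate-binding proteins (Gbp) are a family of large GTPases, and 8 mouse genes of the family (Gbp2, Gbp3, Gbp4, Gbp5, Gbp6, Gbp7, Gbp8 and Gbp9) were followed here in skin endothelial cells labelled wild type or knockout for APJ, the apelin receptor encoded by Aplnr. They were found as the array probes whose transcript accession belongs to 1 of these symbols, which gave 9 probes for 8 of the 20018 gene symbols on the array. The 6 samples were 3 wild type (wildtype in the genotype label) and 3 APJ knockout (APJ KO), all of strain C57Bl/6J, sorted by flow cytometry and not treated afterwards. Each was hybridised to its own one-colour Agilent array. The titles number the samples within each genotype. The knockout allele, the sort markers and the number of animals per sample are not given in the sources used here, and an embryonic stage appears in file names but in no label. The titles do not establish separate animals, so the p-values weigh differences against the spread of these 6 samples alone. With so few arrays every value has limited precision.

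Guanylate-binding proteins are among the transcripts most strongly induced by interferon gamma. The proteins bind GTP, assemble on the membranes of bacteria and of vacuoles that hold parasites, and help to open these to inflammasomes such as the one that activates caspase-11 (Casp4 in the mouse). Gbp3, Gbp6, Gbp7 and Gbp9, as well as Gbp2, have been seen on the vacuole of Toxoplasma in stimulated cells, and Gbp4 has been described as a brake on the interferon factor IRF7. In endothelium the family is known as a mark of activation by inflammatory cytokines. The mouse genes lie in a cluster on chromosome 3 and another on chromosome 5. In the gene order of the reference table the chromosome 3 cluster reads Gbp5, Gbp7, Gbp3, Gbp2b and Gbp2, and the chromosome 5 cluster reads Gbp8, Gbp9, Gbp4, Gbp10, Gbp6 and Gbp11.

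Levels are log2 processed signals minus the 75th percentile of log2 signal on the same array, so that 0 is the level of that percentile. A level is compared only with the same probe on other arrays, since probes differ in how they bind. The 75th percentile lay between 251.8 and 399.7 intensity units and 50.4% to 58.0% of 55681 probes were well above background per array, by the scanner software's own call. Aplnr itself was lower on every knockout array (1.89, 1.71 and 2.26) than on every wild-type array (3.35, 3.77 and 3.82). Signal from its probe remained at 30.9% of wild type and was well above background on all 3 knockout arrays, and whether this probe lies in the altered part of the gene was not analysed here. All 14 endothelial markers examined, among them Pecam1, Cdh5 and Kdr, were well above background on all 6 arrays. The family was chosen with its genotype differences known, so these are given as a description with no p-value.

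The chromosome 3 genes carried the larger differences, and they did not all go the same way. Gbp3 was higher in the knockout, Gbp7, the next gene along, was lower, Gbp5 was higher and Gbp2 was slightly lower, each with no overlap between the genotypes. The 3 measurable chromosome 5 members, Gbp4, Gbp6 and Gbp9, overlapped between the genotypes.

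Gbp3 (probe accession NM_018734) read -0.16, -0.93 and -0.98 on wild-type arrays 1 to 3 and 1.61, 1.63 and 1.34 on knockout arrays 1 to 3. Every knockout array lay above every wild-type array, with a gap of 1.503 between the nearest arrays of the groups. The wild-type mean was -0.69 ± 0.46 and the knockout mean 1.53 ± 0.16 (SD, n = 3 each). The difference of 2.22 ± 0.23 (SE of the fit) corresponds to 4.65-fold more signal in the knockout. On the scanner's linear scale, before any scaling between arrays, the wild-type arrays read 132 to 258 intensity units and the knockout arrays 809 to 1013.

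Gbp7 (NM_145545), which has been studied for its part in defence against intracellular pathogens, read -1.29, -1.70 and -1.78 in wild type and -3.06, -3.48 and -3.05 in the knockout. Here the knockout arrays were the low ones, and the nearest arrays of the groups were 1.28 apart. Group means were -1.59 ± 0.26 for wild type and -3.20 ± 0.24 for the knockout (SD over 3 arrays). The difference was -1.61 ± 0.18 (SE), leaving the knockout at 32.7% of the wild-type signal. All 3 knockout arrays were still well above background for Gbp7.

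Gbp5 (NM_153564), linked to activation of the NLRP3 inflammasome, read -3.98, -4.23 and -3.64 in wild type and -2.90, -2.59 and -2.93 in the knockout. Wild type replicate 2, the lowest value, was not well above background, so the wild-type level is imprecise. The groups were 0.71 apart at their nearest arrays. Wild type averaged -3.95 ± 0.29 and the knockout -2.81 ± 0.19 (SD over 3 arrays). This difference of 1.14 ± 0.18 (SE) is 2.21-fold.

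Gbp2 (NM_010260), a lipid-anchored member recruited to parasite vacuoles, read -2.15, -2.40 and -2.33 in wild type and -2.61, -2.49 and -2.76 in the knockout. The knockout arrays were again the lower ones, but the nearest arrays of the groups were only 0.09 apart. The difference was -0.32 ± 0.11 (SE), to 79.9% of wild type.

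**Figure D1:**
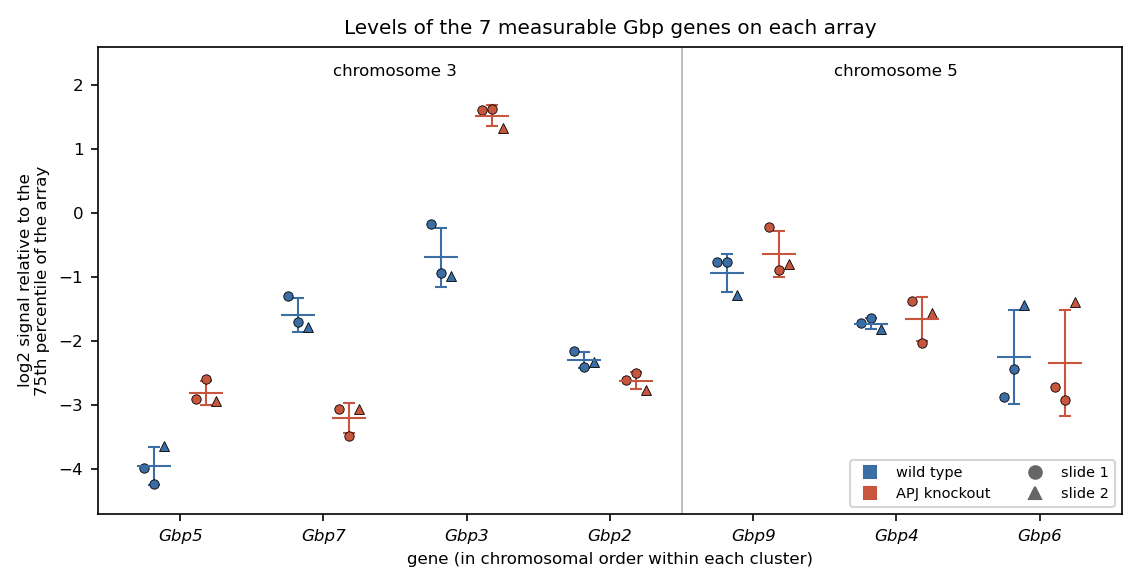
Each point is the log2 signal of a gene's probe on 1 array, relative to that array's 75th percentile, for wild type (blue) and APJ knockout (red), with circles for slide 1 and triangles for slide 2; long bars are group means and error bars the SD of 3 arrays. Gbp3, Gbp5, Gbp7 and Gbp2 separate the genotypes without overlap, Gbp9, Gbp4 and Gbp6 do not, and levels of different genes are not comparable.

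Of the 7 members that could be tested, 4 had groups that did not overlap, 2 higher and 2 lower in the knockout. Over everything tested 12.2% did not overlap, 6.37% higher and 5.86% lower. Gbp5, 1 of the 2 higher, was tested only because its knockout arrays, the higher ones, were all well above background. The family was chosen with these differences known, so the members' count of non-overlapping groups supports nothing. A threshold of 0.05 on limma's Benjamini-Hochberg adjusted p over all 24235 genes and unnamed probes was passed by 134 of them, or 0.553%, with 89 higher (0.367%) and 45 lower (0.186%) in the knockout. Gbp3 and Gbp7 were among these 134, as 2 of 7 members, and nothing is read from this count because the family was chosen on the same comparison. With slide as a block 285 of 24235 passed, Gbp3 and Gbp7 among them. With the replicate number as a block 5 of 24235 passed (0.0206%) and 0 of the 7 members did. The replicate block leaves fewer residual degrees of freedom, and under it the SE was 0.18 for Gbp3 and 0.13 for Gbp7. In that limma fit 4 of the 7 members and 14% of everything tested had an unadjusted p below 0.05, and nothing is read from the members' count here either. Leaving out wild type replicate 1 kept Gbp3 and lost Gbp7, and leaving out any other single array, wild type replicate 2 or 3 or APJ knockout replicate 1, 2 or 3, lost both. The differences themselves moved little when 1 array was left out, from 2.07 to 2.48 for Gbp3, from -1.71 to -1.46 for Gbp7 and from 1.00 to 1.29 for Gbp5.

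The sequences around the transcription starts of the chromosome 3 members are shown because these neighbours differed in opposite directions. They are from RefSeq on GRCm38.p6 and run from 250 bases before to 50 bases after the start, 5′ to 3′. Of the 8 members 4 matched an entry, with 5 starts, and Gbp4, Gbp6, Gbp8 and Gbp9 did not. Capitals mark the interferon-stimulated response element (ISRE, searched on both strands as GAAA, any 2 bases, then GAAA) and the gamma-activated site (GAS, searched as TTCNNNGAA, which reads the same on both strands).
Gbp5, chr3:142496684-142496983, + strand: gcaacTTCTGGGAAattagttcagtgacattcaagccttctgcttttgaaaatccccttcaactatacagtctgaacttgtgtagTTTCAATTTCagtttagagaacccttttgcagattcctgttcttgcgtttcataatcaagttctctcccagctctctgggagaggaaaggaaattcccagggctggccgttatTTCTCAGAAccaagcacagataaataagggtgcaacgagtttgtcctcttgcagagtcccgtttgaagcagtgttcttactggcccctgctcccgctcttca
Gbp7, chr3:142530086-142530385, + strand: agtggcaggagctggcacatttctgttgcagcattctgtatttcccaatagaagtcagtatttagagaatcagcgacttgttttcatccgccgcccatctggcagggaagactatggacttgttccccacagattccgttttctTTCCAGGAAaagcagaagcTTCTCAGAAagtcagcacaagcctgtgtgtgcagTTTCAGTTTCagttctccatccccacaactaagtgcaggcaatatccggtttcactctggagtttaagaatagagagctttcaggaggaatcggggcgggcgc
Gbp3, chr3:142559794-142560093, + strand: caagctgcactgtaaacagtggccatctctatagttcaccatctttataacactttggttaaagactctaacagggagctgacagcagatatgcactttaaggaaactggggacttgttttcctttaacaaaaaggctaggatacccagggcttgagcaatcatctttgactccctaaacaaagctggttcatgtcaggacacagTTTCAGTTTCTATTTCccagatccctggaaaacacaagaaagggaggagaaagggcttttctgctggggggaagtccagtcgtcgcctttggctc
Gbp2, chr3:142620413-142620712, + strand: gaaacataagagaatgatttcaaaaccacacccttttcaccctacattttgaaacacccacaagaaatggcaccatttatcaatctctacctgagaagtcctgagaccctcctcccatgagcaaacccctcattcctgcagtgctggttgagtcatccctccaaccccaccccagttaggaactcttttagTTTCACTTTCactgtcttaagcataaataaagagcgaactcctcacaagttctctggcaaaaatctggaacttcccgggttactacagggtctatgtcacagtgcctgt
All 4 stretches held the ISRE letters, which 3.44% of the 32851 promoters of the same length in the table held. In Gbp3 there were 2 overlapping matches, from 45 to 36 and from 39 to 30 bases before the start. Gbp7 had its match at 53 to 44 bases, Gbp2 at 59 to 50 bases and Gbp5 farther away at 165 to 156 bases before the start. GAS letters were found in Gbp5 and Gbp7, with 2 matches each, and not in the windows of Gbp3 and Gbp2, against 8.3% of all promoters. No ISRE match overlapped a GAS match. The other start of Gbp3 in the table held neither motif. Gbp7, lower in the knockout, and Gbp5, higher in it, thus both had ISRE and GAS letters in these windows. A match is a description of the letters and not a measured binding site.

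On chromosome 5, Gbp9 (NM_172777) read -0.76, -0.76 and -1.28 in wild type and -0.22, -0.88 and -0.79 in the knockout. The highest array was APJ knockout replicate 1 and the lowest wild type replicate 3, and the groups overlapped. The difference was 0.30 ± 0.23 (SE), and with 1 array left out it lay between 0.10 and 0.43. Gbp4 (NM_008620) read -1.72, -1.64 and -1.81 in wild type and -1.37, -2.03 and -1.56 in the knockout. The wild-type arrays all lay between the knockout arrays, and the difference was 0.07 ± 0.18 (SE). Gbp6 (NM_194336) read -2.87, -2.43 and -1.43 in wild type and -2.71, -2.92 and -1.39 in the knockout. Its difference was -0.09 ± 0.51 (SE), and replicate 3 was the highest array of each genotype. With SEs of this size, small differences in Gbp4, Gbp6 and Gbp9 were not detectable with 3 arrays per group. For Gbp6 the SE was 0.14 once slide was a block, with the difference still -0.09.

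Gbp8 (NM_029509) did not reach the well-above-background call on any of the 6 arrays, at 2.2 to 2.7 intensity units, and no ratio is given for it. The same holds for the other probe of Gbp6, at 3.2 to 7.4 units, so that 7 of the 9 probes, standing for 7 of the 8 genes, passed the filter on dim probes. Among family genes outside the 8, both probes of Gbp2b were not well above background on any array. Gbp10, which lies between Gbp4 and Gbp6, did not pass (difference 0.09 ± 0.13, limma adjusted p = 1.00), and Gbp11 had no probe with its symbol. Family members resemble each other in sequence, and since the probe sequences were not analysed here, binding of a probe to a relative's transcript was not tested. In sorted cells measured in bulk, fewer cells that express a gene and less RNA per cell cannot be told apart.

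Slide 1, scanned as a batch, held replicates 1 and 2 of each genotype, and slide 2, scanned as another, held replicate 3 of each. Within slide 1 the knockout minus wild-type difference was 2.17 for Gbp3, -1.78 for Gbp7, 1.36 for Gbp5 and -0.27 for Gbp2. Within slide 2, with 1 array per genotype, it was 2.32, -1.28, 0.71 and -0.42 for the same genes in that order. The direction was the same on both slides for these 4 genes. This had to be so, since their groups do not overlap, and adds nothing to that. The difference of Gbp5 was the larger on slide 1. Gbp4 (-0.02 and 0.25) and Gbp6 (-0.16 and 0.04) changed sign between slides, and Gbp9 (0.21 and 0.49) did not.

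The level of the members on slide 2 against slide 1, a comparison that played no part in choosing them, was tested with genotype as a term. Gbp6 was higher on slide 2, with a mean of -1.41 against -2.73, a difference of 1.32 ± 0.15 (SE, n = 2 and 4 arrays, limma adjusted p = 0.0111). Both slide 2 arrays lay above all 4 slide 1 arrays. Gbp6 was the only member to pass, 1 of 7, where 10.5% of everything tested passed. For the other 6 members the slide difference lay between -0.38 ± 0.20 for Gbp9 and 0.14 ± 0.19 for Gbp5, with limma adjusted p of 0.247 or more. Within each genotype, the spread of Gbp6 followed the slide.

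**Figure D2:**
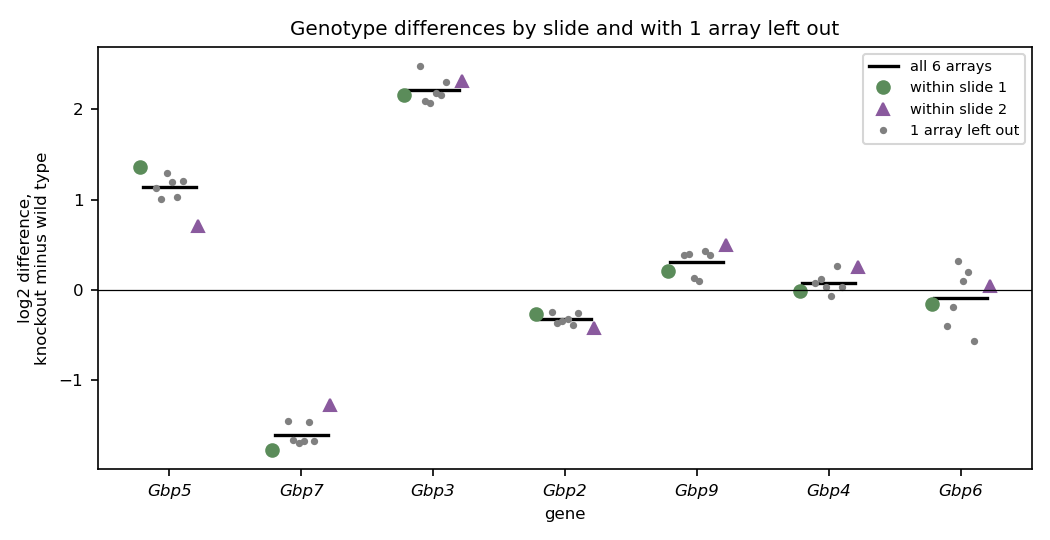
Knockout minus wild-type log2 difference of each measurable member over all 6 arrays (black bar), within slide 1 (green circle, 2 arrays per genotype), within slide 2 (purple triangle, 1 per genotype) and with each array left out in turn (grey points). Gbp3 stays between 2.07 and 2.48 and Gbp7 between -1.71 and -1.46 when 1 array is left out, while Gbp6 and Gbp4 cross 0.

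Once each genotype's mean was removed, correlations between members over the 6 arrays went in both directions. The Pearson correlation of these deviations over the 21 pairs of members had a median of 0.05 and ran from -0.76 (Gbp2 with Gbp6) to 0.84 (Gbp2 with Gbp3). For the 9 pairs on the same chromosome the median was 0.15 and for the 12 pairs on different chromosomes -0.09. These are descriptions over 6 arrays that share slides, too few to show whether or not the members vary together.

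Among all named genes tested, the level of Gbp3 over the 6 arrays was most like that of Fyttd1, an mRNA export factor, Hal, the histidine ammonia lyase (well above background on 3 of 6 arrays), and Arhgef28 (Pearson r = 0.997, 0.996 and 0.995). The measure ignores size, since Fyttd1 differed by 0.11 between the genotypes, Arhgef28 by 0.51 and Hal by 2.08. Gbp3 and Gbp7 were chosen with their genotype split known, and a gene with a like split scores high beside them. For Gbp7 the nearest were Pcsk5, a proprotein convertase, Lrrc15 and Six3os1, the last well above background on 4 arrays (0.991, 0.990 and 0.989). For Gbp2 they were Pnrc2, Sucla2 and Tpd52l1 (0.996, 0.984 and 0.982). For Gbp6, whose levels split by slide, they were Scamp4, Tada3 and Rabgap1 (0.997, 0.996 and 0.996), none of which differed by more than 0.07 between genotypes. Gbp4 came nearest to Gm12253, Trip4 and Itih5 (0.976, 0.966 and 0.961), and Gbp9 to Gabrd, Cldn15 and the embryonic globin Hba-x (0.976, 0.969 and 0.969). For these 6 members no other Gbp gene was among the 3 nearest. With only 3 picked from all named genes over 6 arrays, that says little about the family.

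The genes beside the clusters did not pass the threshold. Of 41 tested genes, 10 on each side of each cluster and Gbp10 within one, 0 passed over everything tested by limma, against 0.553% in all, and 4 had an unadjusted p below 0.05, beside 8.03% of everything tested. Their median difference was 0.02, against -0.02 over everything tested. Pdlim5, which flanks Gbp5, differed by -0.02 ± 0.09 and Gtf2b, a general transcription factor beyond Gbp2, by 0.02 ± 0.09 (SE, n = 3 per group). Bmpr1b, a BMP receptor beyond Pdlim5, differed by -1.35 ± 0.28 without passing (limma adjusted p = 0.145), only 1 of 3 knockout arrays being well above background. A block for the slide brought it past (limma adjusted p = 0.0323), as did leaving out APJ knockout replicate 3 (0.0440). Kyat3, an aminotransferase gene and the first tested gene after Gbp2, had probes that went opposite ways. Its brighter probe read 0.95, 0.97 and 1.33 in wild type and 1.48, 1.43 and 1.38 in the knockout (difference 0.35 ± 0.13, limma adjusted p = 0.507). Its dimmer probe, picked out after its values were seen, read -3.89, -3.70 and -3.64 in wild type and -4.33, -4.12 and -4.23 in the knockout, a difference of -0.49. Some other neighbours also had a dimmer, untested probe that was lower in the knockout without overlap. No neighbour had a dimmer probe that was higher without overlap. Clca2, a chloride channel regulator, differed by 0.65 ± 0.26 (limma adjusted p = 0.579). Next to the chromosome 5 cluster, the zinc finger gene Zfp951 differed by -0.72 ± 0.12 (limma adjusted p = 0.0850). Its dimmer, untested probe differed by -1.40, with 1 wild-type array and 0 knockout arrays well above background.

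**Figure D3:**
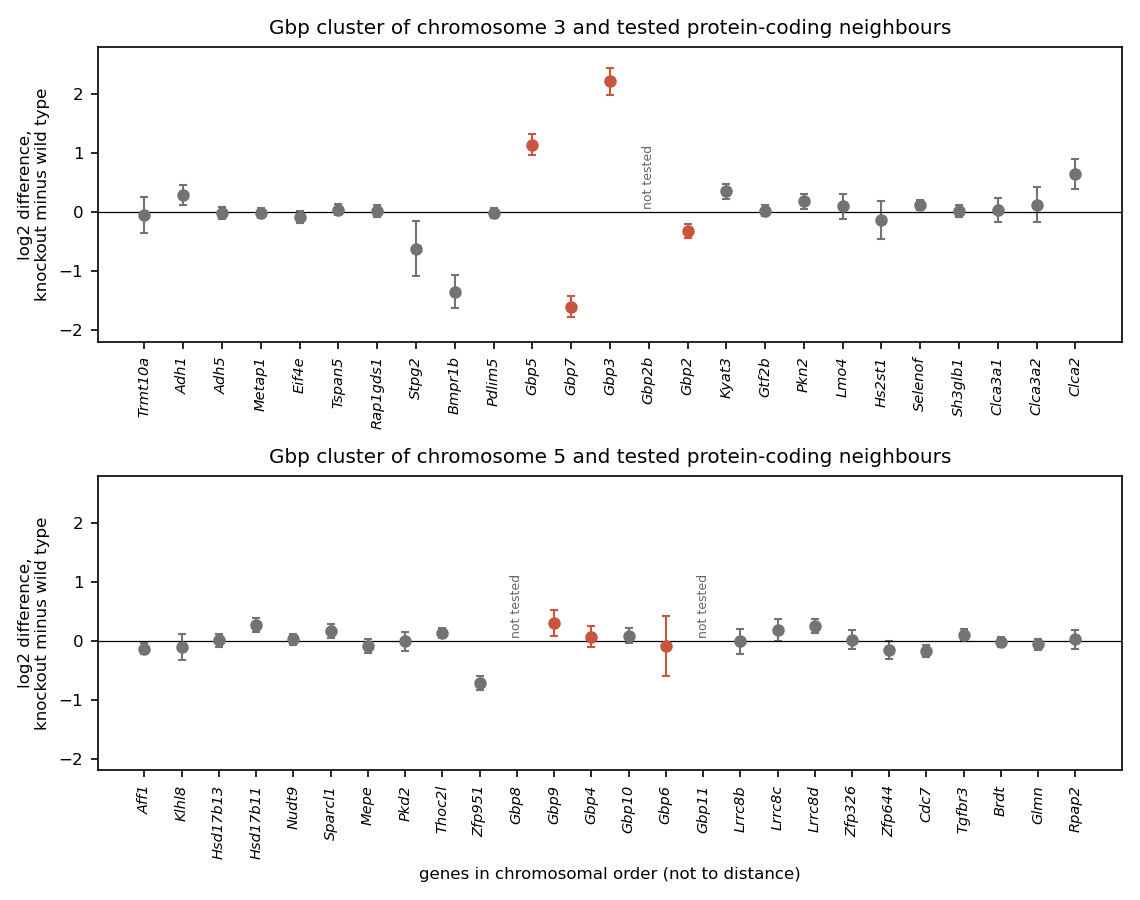
Knockout minus wild-type log2 difference, with the SE of the fit, of the Gbp members (red) and of the 10 nearest tested protein-coding genes on each side (grey), in chromosomal order. Gbp5, Gbp7 and Gbp3 stand at 1.14, -1.61 and 2.22 between flanking genes at -0.02 (Pdlim5) and 0.35 (Kyat3), and the chromosome 5 members lie between -0.09 and 0.30.

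Other genes of the interferon system, and relatives and partners of the family listed with them, did not pass. Of 147 symbols on 8 lists, 119 were tested, with Wars and Ddx58 each also listed under another symbol. By limma 0 rose and 0 fell, beside 0.553% passing over everything tested, so 0 of 119 is near that share. In each shorter list below, a count of 0 says still less. An unadjusted p below 0.05 by limma was found for 16, where 8.03% of everything tested had one. The median difference of these 119 genes was -0.01, with 55 above 0 and 64 below, where 43.5% of everything tested lay above 0. H2-Ab1 was the 1 gene to pass once slide was a block (limma adjusted p = 0.0286). The median over the 7 Gbp members was 0.07, with 4 above 0 and 3 below.

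Of the interferon ligands and receptors 0 of 9 passed, with a median of -0.07. Ifng, the gene of interferon gamma, read -2.80, -2.94 and -1.70 in wild type and -3.33, -4.15 and -2.91 in the knockout, a difference of -0.99 ± 0.43 (limma adjusted p = 0.656) with overlapping groups. The receptor genes Ifnar1 and Ifngr1 differed by -0.23 ± 0.08 and -0.13 ± 0.09 (limma adjusted p = 0.491 and 0.993). Of the JAK, STAT and IRF factors 0 of 16 passed (median 0.02). Socs1, an inhibitor of JAK kinases, differed by -0.32 ± 0.10 and the factor gene Irf8 by 0.52 ± 0.24 (limma adjusted p = 0.425 and 0.722).

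Of the immunity-related and very large interferon-inducible GTPases, which act beside guanylate-binding proteins on vacuoles, 0 of 9 passed and 8 were below 0 (median -0.12). Only 43.5% of everything tested lay above 0. Ifi47 differed by -0.26 ± 0.09, Gvin1 by -0.21 ± 0.23 and Iigp1 by -0.17 ± 0.20 (limma adjusted p = 0.514, 1.00 and 1.00). Their differences ran from -0.26 to 0.01. The atlastin and dynamin-like GTPases had 0 of 9 passing and a median of 0.01, with Atl1 at 0.25, Dnm1 at 0.14 and Mfn2 at -0.09. Antiviral genes induced by type I interferon had 0 of 32 passing and a median of -0.00468, with the DNA sensor Ifi204 at 0.60 ± 0.13, the antiviral enzyme Rsad2 at -0.55 ± 0.15 and the tether Bst2 at -0.38 ± 0.13 (limma adjusted p = 0.174, 0.299 and 0.461). Of the antigen presentation and interferon gamma-induced genes 0 of 22 passed (median 0.11). The peptide transporter gene Tap2 differed by 0.44 ± 0.08, Nos2 by -0.39 ± 0.08 and the class II gene H2-Ab1 by 0.88 ± 0.32 (limma adjusted p = 0.118, 0.119 and 0.519). Inflammasome and vacuole partners had 0 of 21 passing (median -0.01), with Casp4, the caspase-11 gene, at -0.59 ± 0.16, the pore-forming Gsdmd at -0.31 ± 0.10 and Rab4a at -0.31 ± 0.12 (limma adjusted p = 0.282, 0.439 and 0.555).

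**Figure D4:**
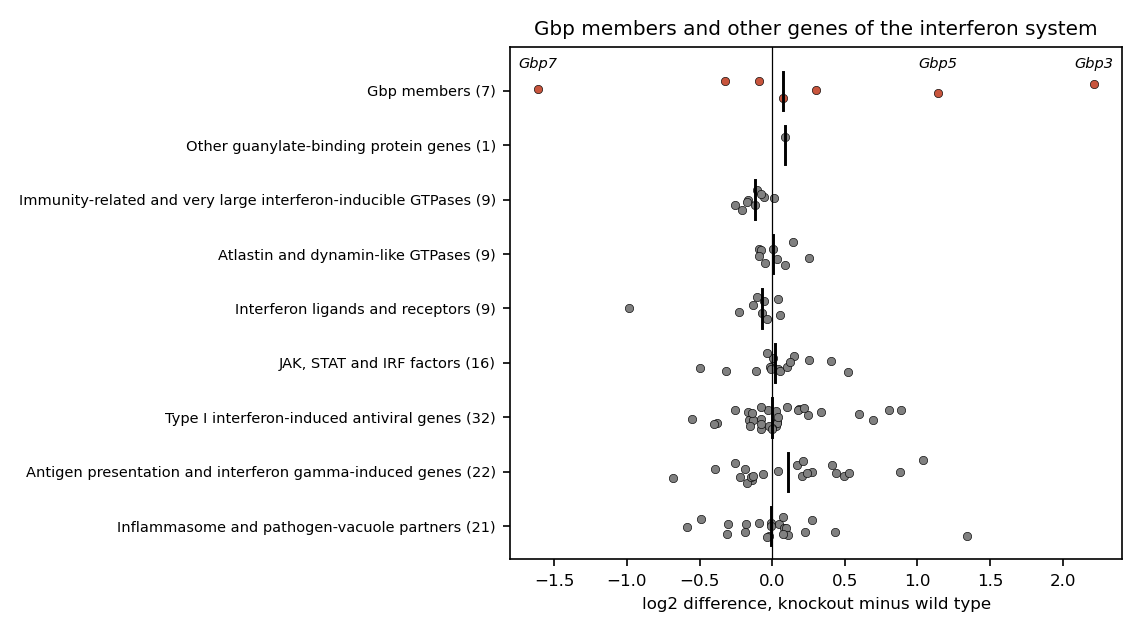
Knockout minus wild-type log2 difference of each tested gene (points, spread vertically only for sight) and list median (black bar) for the Gbp members (red) and 8 lists of other genes (grey), with the number of tested genes in brackets. Gbp3 at 2.22 and Gbp7 at -1.61 lie outside the range of the other lists, -0.99 to 1.34. The family was chosen with these differences known, so nothing is read from that.

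Macrophages and lymphocytes also express guanylate-binding proteins, so markers of cell types that a sort could hold were measured beside the family. Summed over 11 macrophage markers, the linear signal relative to the 75th percentile ranged from 14.3 to 26.9 in wild type and from 16.6 to 25.7 in the knockout. Of these markers 10 of 11 had a difference above 0 (median 0.48), beside 43.5% of everything tested. For 5 the groups did not overlap and the knockout was higher, beside 6.37% of everything tested. By limma 0 of the 11 passed and 7 had an unadjusted p below 0.05, beside 8.03% of everything tested. On slide 1 the sum was 14.3 and 14.9 in wild type against 18.2 and 16.6 in the knockout, and on slide 2 it was 26.9 against 25.7. T and NK cell markers summed to 15.99 to 18.5 in wild type and 15.2 to 20.3 in the knockout, with Cd8a and Ncr1 not well above background on any array. B cell markers (2.10 to 2.38 and 2.02 to 2.14), neutrophil markers (5.79 to 8.54 and 5.06 to 6.39) and mural cell markers (2.27 to 2.93 and 2.47 to 2.96) had sums of a few units, with Ms4a1, Pax5, Ngp, Ltf and Myh11 not well above background. Keratinocyte markers ranged from 10.2 to 35.6 in wild type and 10.4 to 11.4 in the knockout (8 of 8 tested below 0, median -1.30), fibroblast markers from 6.93 to 9.14 and 6.65 to 10.4, and melanocyte and Schwann cell markers from 1.00 to 1.84 and 0.946 to 1.69. Endothelial markers ranged from 1131 to 1242 and from 1170 to 1272. None of the markers tested passed in either direction. Beside the 7 macrophage markers, limma gave an unadjusted p below 0.05 for 1 T and NK cell marker and 2 endothelial markers. It also did so for 1 neutrophil and 1 keratinocyte marker, and for 0 among the rest. The sums overlapped between the genotypes for each cell type, and their part in the Gbp differences was not tested.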

How the data were processed

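Each deposited scanner file gives an intensity per spot (per the file headers, from Feature Extraction 10.7.3.1 of Agilent), from 0.1 µg of RNA labelled with Cy3 per the labels' protocols. The processed intensity is background-subtracted and not scaled between arrays. The authors' deposited value table is this intensity times 1 constant per array, of unstated origin, on a linear scale with no centring; its column medians were 63.5, 62.1 and 65.1 in wild type and 67.0, 60.3 and 63.2 in the knockout.

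Control and outlier spots were left out, log2 spots of a probe averaged and the 75th percentile subtracted. A probe was tested if well above background on every array of at least 1 group and measured on all 6, with the brightest probe per symbol. Symbols came from RefSeq by accession (97.7% of 27016 curated accessions). limma 3.58.1 in R 4.3.3 (lmFit, eBayes, two-sided, Benjamini-Hochberg) was tested on simulated data. Members, lists and tests were chosen with earlier results of these data known. Named are all members, Aplnr, the genes of each list and of the neighbours past the threshold with up to 3 others of smallest unadjusted p, the nearest flanking genes, and the 3 genes most like each member well above background on 6 arrays. Deviations of same-numbered samples correlated at r = 0.226, 0.152 and 0.646. On slide 1 the pairs of unlike number correlated more, wild type 1 with knockout 2 at 0.357 and wild type 2 with knockout 1 at 0.280. Pairs across slides ran from -0.473 to -0.349, so the correlation followed the slide. The labels state no pairing. Of the genes under the naming rule, 1 is not reported here. Alternatives were other background correction, scaling, filter and probe rules, the authors' values, blocks and leaving out arrays.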

Additional observations from a re-analysis of the deposited data

How the results depend on the processing

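The authors' values, the filter and probe rules and both blocks could not move the genotype differences. They left each tested member at the value reported. These settings are included in the 104 recalculations of the genotype differences of the 7 measurable members. Of those past the threshold 0 changed sign. Of the 104 recalculations, 102 stayed within 1 SD of the value reported. The exceptions were Gbp5 at 0.39 and Gbp7 at -0.73 with normexp on the median signal, an alternative chosen after seeing the data in place of the planned mean signal; it adds an offset of 50 units to every spot, which shrinks differences of dim probes. The number of members past the threshold, 2, became 1 with normexp, 0 without a filter on dim probes, 0 under the replicate block and 0 to 1 with 1 array left out. By limma 3 to 4 members had an unadjusted p below 0.05 in these fits, beside 4.39% to 14% of everything tested; the members were picked on this contrast, so that count supports nothing. Over everything tested, 89 were higher and 45 lower. These became 3 and 0 without the filter (1049 lower at an unadjusted p below 0.05 by limma), 184 and 101 with slide as a block, 4 and 1 under the replicate block, and 136 higher when every probe was tested. With 1 array left out they ran from 11 to 45 and from 2 to 27. The slide as a block brought 1 interferon system gene and 1 neighbour past the threshold, and leaving out arrays 0 to 1 neighbours; the replicate block changed no other call on these lists. The slide difference of Gbp4, close to 0, changed sign to -0.14 with normexp, -0.034 with quantile normalization and -0.00792 with the percentile over detected probes. With normexp that of Gbp5 was -0.22 (limma adjusted p = 0.0497) and that of Gbp7, -0.27, passed (0.0188); the cause was not tested. Dim probes, Gbp5 in wild type above all, limit precision.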
